A study of Drosophila melanogaster with 2 samples.

Results

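The regions described here are ChIP-seq peaks of tagged disco-r that lay deep inside introns of autosomal genes. They were selected on the pooled peak signal and on agreement between replicates, through the authors' optimal IDR list (IDR, irreproducible discovery rate, scores how well the ranks of regions match between replicates), and then on position. A peak was kept when its summit lay on an autosome, inside a protein-coding gene body, in no annotated coding exon or UTR, and more than 3000 bp from the nearest protein-coding transcription start site (TSS). This left 257 far-intron peaks of 2334 IDR peaks, or 11% (95% Wilson interval 9.80 to 12.3), and 13.5% of the 1903 IDR peaks on autosomes. The study held 1 group of 2 biological replicates, numbered 2 and 3. Both came from the transgenic Drosophila melanogaster strain disco-r-GFP, as whole embryos collected at 0 to 24 h with males and females pooled, and were precipitated with an antibody against GFP after sonication to 200 to 800 bp. One label names disco as the gene joined to the tag, while the others name disco-r. The tagged copy is a transgene, and a collection over 0 to 24 h mixes all embryonic stages and cell types. There was no contrast between conditions, no input library was analysed here, and the number of reads is unknown.

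The disco-r protein is a zinc-finger transcription factor that acts with its neighbouring paralog disco in patterning the head and appendages of the fly embryo. Intronic regions far from start sites are a common place for developmental enhancers in flies, where clusters of bound sequence can control a gene over long distances. ChIP-seq reports where DNA is recovered with the tagged protein, directly or through other proteins, and does not by itself show a regulatory effect on the gene that holds the peak. The host gene of a peak is therefore only the gene whose body contains it.

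The DNA around the summits of the 5 strongest peaks is shown because the summit is the base on which every later count is centred. The capital letter is the summit, at base 15 of 30, on the plus strand of the Release 6 assembly (dm6).
osa, chr3R:17704391-17704420: aaattattgtttctGatcaagtcactcatc
Gug, chr3L:8458334-8458363: atatagaaaaatatGttcttgaattgaacg
CG32486, chr3L:3060790-3060819: agagagtcaataagCaaaaccttgcttact
Mi-2, chr3L:19903244-19903273: taccacacaaaatgAtcaaaattcggattg
JIL-1, chr3L:11084762-11084791: tttttttgaaagtaCatgaataaaatatgt

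Within 100 bp of the summit, GC content was 29.9% in the Gug and JIL-1 peaks, 37.3% in osa, 39.3% in Mi-2 and 49.3% in CG32486. The median was 36.3% over all far-intron peaks and 42.3% over far-intron candidates outside the IDR list, so CG32486 lay above both.

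A sequence feature that differed in frequency between the far-intron peaks and the candidates outside the IDR list lay not on the summit but beside it. The 6-mers ACACTG and ACAGTG, which differ in the fourth base, lay 50 to 150 bp from the summit and were read 5′ to 3′ towards it. A word is said here to face the summit when the summit is downstream of the word on the word's own strand, and to face away when the summit is upstream. Of the 257 far-intron peaks, 86 held a facing copy at 50 to 150 bp, or 33.5% (28.0 to 39.4), and 29 held a copy facing away at the same distances, or 11.3% (7.97 to 15.7). Among 5059 far-intron candidates outside the IDR list and overlapping none of its peaks, the shares were 10.3% (9.47 to 11.1) and 7.97% (7.25 to 8.74). The intervals of the facing and the opposite orientation did not overlap in the peaks. They did not overlap in the candidates either, where the shares lay closer together. Copies from 6 strong peaks are printed to show the word in its surroundings, with the word in capitals and the summit to the right of each line.
osa, chr3R:17704309-17704338, plus strand: aaacgaggcagtACACTGaaacataagctg
Gug, chr3L:8458403-8458432, minus strand: aacggacagactACACTGataaaaaaaatg
JIL-1, chr3L:11084844-11084873, minus strand: ggatacacacgtACACTGcaaaaaaaaaat
CG33158, chr3L:16480465-16480494, plus strand: acacacacgtgtACAGTGagagaaaatatg
fz, chr3L:14303971-14304000, plus strand: ctgatgtcgggtACAGTGaataatgcctat
Btk, chr2L:8292688-8292717, minus strand: agcatgtgtgggACAGTGcggttcgttatc

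The distance from the middle of the word to the summit was 81.5 bp in the osa peak, 69.5 bp in Gug, 82.5 bp in JIL-1, 72.5 bp in CG33158, 84.5 bp in fz and 116 bp in Btk. Btk was the farthest of these. The printed copies come from the range of distances counted above, which bounds how far apart they can lie. Their similar distances are therefore no finding. Over all far-intron peaks the facing words were most frequent 75 to 100 bp from the summit, where 33 of 257 peaks held one, or 12.8%, against 2.98% of the candidates. At the same distance on the other side, facing away, 8 peaks held one, or 3.11%, against 1.96% of the candidates. Each word of the pair showed the pattern. ACACTG faced the summit in 47 peaks, or 18.3% (14 to 23.5), and faced away in 14, or 5.45% (3.27 to 8.93). ACAGTG faced the summit in 48 peaks, or 18.7% (14.4 to 23.9), and faced away in 15, or 5.84% (3.57 to 9.41).

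With another base at the fourth place the words were rarer on the facing side. ACAATG faced the summit in 9 peaks, or 3.50% (1.85 to 6.52), and away in 15, or 5.84% (3.57 to 9.41). ACATTG faced it in 18, or 7.00% (4.48 to 10.8), and away in 9, or 3.50% (1.85 to 6.52). The counts of ACATTG thus still leaned to the facing side and those of ACAATG to the other, with overlapping intervals for each word. The facing words stood on the left of the summit alone in 30 peaks, on the right alone in 35, and on both sides in 21. Peaks with a facing word on both sides made up 8.17% of the far-intron peaks and 0.830% of the candidates. The base just before the word was T in 58 of 110 facing copies, or 52.7%, against 34.8% of 583 facing copies in the candidates. The base 3 places after it was A in 60 copies, or 54.5%, against 38.1% in the candidates. In the IDR peaks other than the far-intron peaks these shares were 36.8% and 35.4% of 687 facing copies, near those of the candidates. These flanking bases were thus not shared with the other peaks to the same degree. A peak can hold more than 1 copy, and no interval is given for copies.

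The facing pair was found in peaks of every strength within the selected range. With peaks split by pooled signal into 3 groups of 85 or 86, it was held by 35.3% (26.0 to 45.9), 32.6% (23.6 to 43.0) and 32.6% (23.6 to 43.0) from the strongest to the weakest group. The median signal was 103 in peaks with a facing word and 96.4 in the rest. Signal chose the peaks, so these values are a description. In far-intron regions taken from each replicate alone, at its own summits, the facing share was 27.1% (22.1 to 32.7) in replicate 2 and 34.5% (28.9 to 40.6) in replicate 3. The opposite orientation gave 8.65% (5.83 to 12.6) and 12.4% (8.91 to 17.1). The facing share was therefore above the share facing away in each replicate taken alone. Most of these regions were the same places, as 74.8% in replicate 2 and 81.1% in replicate 3 overlapped a far-intron peak. The shares are thus not independent of those above. Candidates weighted to the GC content of the peaks gave 13.4% facing and 7.64% away.

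The pattern was shared with peaks in other places, and nothing here makes it particular to far introns. The facing share was 31.6% (26.8 to 36.8) in 323 autosomal intron peaks 501 to 3000 bp from a TSS, called near-intron peaks below, 27.9% (22.9 to 33.5) in 269 intergenic peaks and 36.7% (26.9 to 47.7) in 79 far-intron peaks on X. The shares facing away were 13.9% (10.6 to 18.1), 10.8% (7.61 to 15.1) and 13.9% (7.96 to 23.2) in the same order. At 1021 autosomal promoter peaks the facing share was 21.0% (18.6 to 23.6), with 15% (12.9 to 17.3) facing away. The interval of the facing share in far-intron peaks lay above that of the promoter peaks and overlapped those of the other classes. For single words the facing and opposite intervals overlapped in some classes. Examples were ACACTG at promoter peaks, 10.2% and 8.62%, and ACAGTG in near-intron peaks, 15.8% and 9.91%. The words themselves came from these other peaks: among 1230 oriented 6-mers held by at least 5% of the other 2077 IDR peaks, which include the far-intron peaks on X, the 10 with the highest ratio of facing to opposite copies were mostly overlapping pieces of the pair and its flanks. Read in the far-intron peaks, 9 of these 10 had more peaks facing than away, GAGATG being level at 9 and 9. TACACT faced the summit in 46 peaks and away in 17, and CACTGA in 46 and 11. The joining of these overlapping words into the pair, and the distances of 50 to 150 bp, were chosen after the counts had been seen, so the shares are a description and carry no test. What gives rise to the orientation was not tested. The lists hold regions and no reads, so where reads began around these words was not analysed here.

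**Figure D1:**
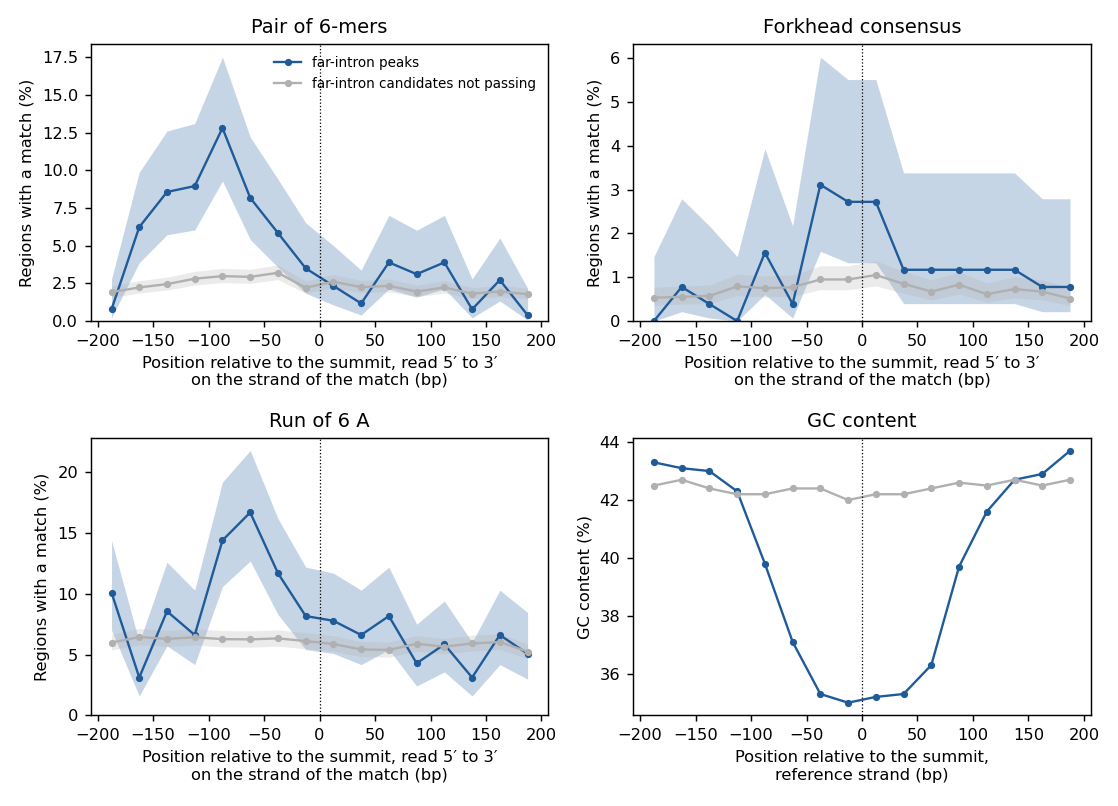
Share of regions with a match in 25-bp bins around the summit, for the pair of 6-mers, the forkhead consensus and a run of 6 A, each placed on the strand of the match so that negative positions face the summit, and GC content on the reference strand (vertical axes in percent, horizontal axes in bp; blue, 257 far-intron peaks; grey, 5059 far-intron candidates not passing; bands, 95% Wilson intervals). The pair reaches 12.8% at 75 to 100 bp on the facing side, the forkhead consensus is highest within 50 bp of the summit, and GC content falls from 43.3% at the edge to 35.0% at the centre.

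Runs of A were oriented in the same way, closer to the summit. The run of 6 A was taken from oriented 6-mers ranked by the difference between facing and opposite shares in the other IDR peaks. It ranked 2 there, at 28.0% and 19.1%, after GAAAAA at 25.9% and 16.3%. Its shares are likewise a description and carry no test. A run of 6 A faced the summit at 50 to 150 bp in 98 far-intron peaks, or 38.1% (32.4 to 44.2), and faced away in 50, or 19.5% (15.1 to 24.7). In the candidates the shares were 21.4% (20.3 to 22.5) and 19.0% (18.0 to 20.1). The run was not particular to far introns. Near-intron peaks gave 32.8% facing and 14.6% away, and intergenic peaks 29.0% and 18.6%. Far-intron peaks on X gave 27.8% and 22.8%, with overlapping intervals. The run was most frequent 50 to 75 bp from the summit among 25-bp bins, where 16.7% of peaks held a facing copy and 8.17% a copy facing away. The sequences printed for Gug and JIL-1 show both features together, the 6-mer followed by a run of A towards the summit. Between these flanks the DNA was poor in G and C. Over all far-intron peaks GC content was 43.3% in the bin 175 to 200 bp to the left of the summit, 35.0% in the 25 bp just left of it and 43.7% at 175 to 200 bp to the right. In the candidates it stayed between 42% and 42.7% across all bins. Near-intron peaks shared the fall, with 43.1%, 33.9% and 44.0% in the same bins as the far-intron peaks.

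Forkhead proteins are winged-helix transcription factors that include regulators of gut, gland and muscle development. Their consensus TGTTTAC, searched on both strands, had the highest ratio of peaks to unweighted candidates, 1.83, among those of 34 consensus sequences that were found in at least 5 far-intron peaks. Against candidates weighted to the peaks' GC content its ratio was 1.57, below 2.27 for the Mad consensus GGCGCC, 1.72 for the GAGA factor and 1.65 for a CA repeat. The forkhead consensus lay within 100 bp of the summit in 30 peaks, or 11.7% (8.30 to 16.2), against 6.36% (5.72 to 7.07) of candidates and 7.43% after weighting to GC content. In contrast to the 6-mer pair it lay close to the summit. Within 50 bp it was held by 22 peaks, or 8.56%, against 3.68% of candidates, while at 100 to 150 bp the shares were 2.72% and 2.65%. In far-intron regions of replicate 3 alone the share was 9.24% (6.23 to 13.5), an interval that reaches the candidates' shares, and in replicate 2 alone it was 13.9% (10.3 to 18.6). Near-intron peaks held it in 9.29% of cases, intergenic peaks in 4.09% and far-intron peaks on X in 3.8%. In the same 3 groups by signal it was found in 12.9% (7.38 to 21.7), 16.3% (9.95 to 25.5) and 5.81% (2.51 to 12.9) of far-intron peaks, and these intervals overlapped. The matches in the 3 strongest peaks that hold one are shown, all on the minus strand, with the consensus in capitals.
S, chr2L:1072380-1072409, minus strand: catatacagcgTGTTTACctactttgtagg
for, chr2L:3628955-3628984, minus strand: aacaacatcgaTGTTTACtgtttgattgat
Dys, chr3R:19584936-19584965, minus strand: tgactgcattcTGTTTACacaattgttgtt

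These matches lay 24 bp from the summit in S, 5 bp in for and 2 bp in Dys. The consensus of Mad, the effector of BMP signalling, was held by 11 peaks, or 4.28% (2.41 to 7.5), against 3.08% of candidates and 1.89% after weighting. The GATA-factor consensus AGATAAG was held by 3.89% (2.13 to 7.01) of peaks and 2.39% (2.01 to 2.85) of candidates. The STAT consensus TTCNNNGAA, bound by the signal-activated factor of the JAK/STAT pathway, was held by 8.17% (5.41 to 12.2) and 5.67% (5.07 to 6.34). For GATA and STAT the intervals of peaks and candidates overlapped. The core of the insulator protein CTCF, AGGNGGC, was held by fewer peaks, 5.06% (2.98 to 8.46) against 8.42% (7.69 to 9.22) of candidates, and weighting to GC content brought the candidates to 4.92%. The promoter elements TATCGATA, of DREF and BEAF-32, and GGTCACACT, of M1BP, were found in 0 of 257 peaks, which allows a share of up to 1.47%. Each was also rare in the candidates, at 0.474% and 0.0791%. The shorter BEAF-32 element CGATA was held by 56 peaks, or 21.8% (17.2 to 27.2), against 18.1% of candidates. The Zelda consensus CAGGTAG, of the pioneer factor of the early embryo, was held by 4 peaks, or 1.56% (0.607 to 3.93), against 0.969% of candidates.

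**Figure D2:**
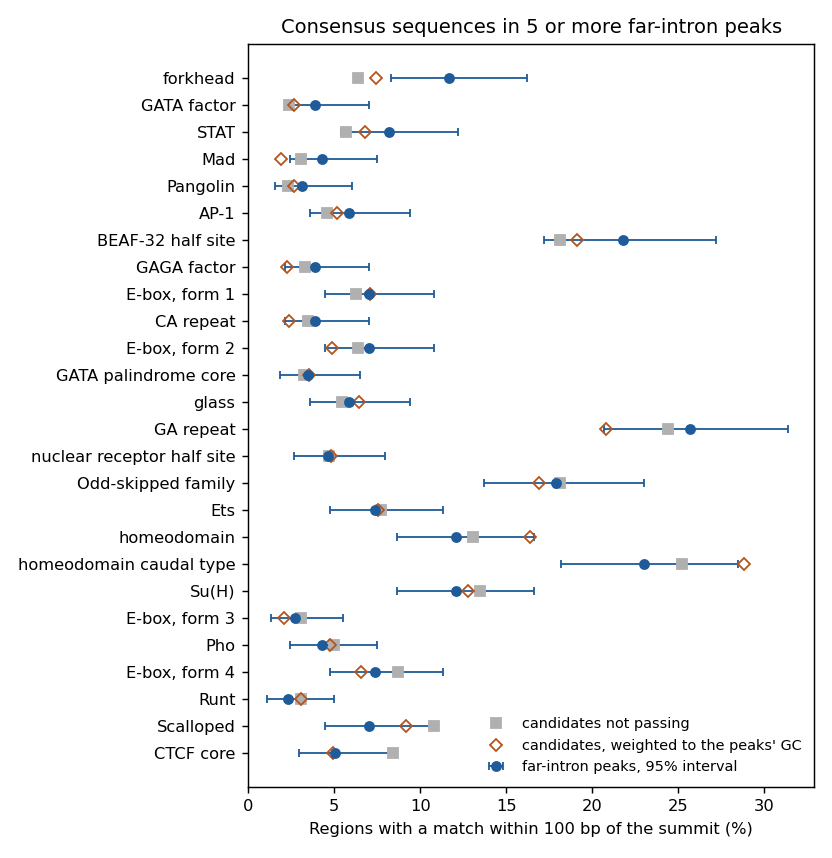
Share of regions with each consensus within 100 bp of the summit (horizontal axis, percent), for the consensus sequences held by 5 or more far-intron peaks (vertical axis, ordered by the ratio of peaks to candidates). Blue points are 257 far-intron peaks with 95% Wilson intervals, grey squares the 5059 candidates not passing and orange diamonds the same candidates weighted to the peaks' GC content; the forkhead consensus, at 11.7%, is the only one of these whose interval lies above both; in replicate 3 alone, at 9.24%, its interval reaches both.

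Of all 29347 pooled candidates, 7.95% were in the IDR list. Among the 5374 autosomal far-intron candidates 257 were, or 4.78%, a lower share than of all candidates. Farther from the TSS the share was lower, though it was level between 2000 and 5000 bp. Of intron candidates 500 to 1000 bp from a TSS 11.6% (9.83 to 13.5) were listed, against 6.74% (5.55 to 8.16) at 3000 to 5000 bp, 5.45% (4.51 to 6.57) at 5000 to 10000 bp, 2.93% (2.16 to 3.96) at 10000 to 20000 bp, and 2.68% (1.72 to 4.14) farther out. The far-intron peaks lay at a median distance of 6070 bp from a TSS (quartiles 4304 and 9634 bp, range 3011 to 85949 bp), and candidates not passing at 8071 bp. The 2 most distant named peaks were both in hth, which encodes a homeodomain cofactor of Hox proteins, at 85949 and 53487 bp.

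**Figure D3:**
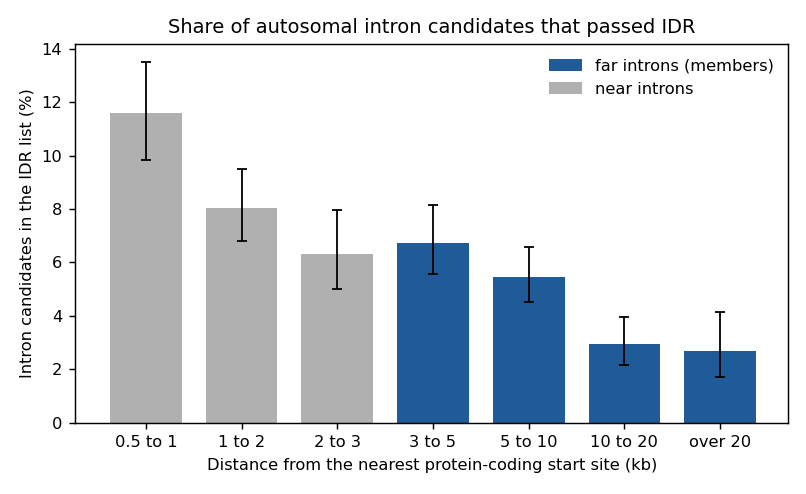
Share of autosomal intron candidates that were in the IDR list (vertical axis, percent) by distance of the summit from the nearest protein-coding TSS (horizontal axis, kb). Bars are shares with 95% Wilson intervals, grey up to 3 kb and blue for far introns; the share falls from 11.6% at 0.5 to 1 kb to 2.68% beyond 20 kb.

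The holding intron was often the first. In 120 of 257, or 46.7% (40.7 to 52.8), it was the first of its transcript, against 36.7% (35.4 to 38.1) of candidates not passing and 69.7% (64.4 to 74.4) of near-intron peaks. The nearest TSS belonged to a host gene in 77.4% (71.9 to 82.1) of peaks and 68.7% (67.4 to 69.9) of candidates. Introns were long in both sets, with medians of 18207 and 16264 bp, and the median distance to coding or UTR sequence was 3353 and 3089 bp. A further IDR peak lay within 10 kb of 137 peaks, or 53.3% (47.2 to 59.3), against 32.2% (30.9 to 33.5) of candidates and 66.3% (60.9 to 71.2) of near-intron peaks. In 7 peaks the summit also lay in an annotated non-coding gene, and in 7 it lay in several overlapping protein-coding genes, so those peaks cannot be given to 1 host. With the start sites of every annotated gene counted, 229 peaks were more than 3000 bp from a TSS.

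By arm, 60 far-intron peaks were on 2L, 53 on 2R, 59 on 3L and 85 on 3R. The share of far-intron candidates that were listed was alike on these arms, from 4.27% (3.32 to 5.46) on 3L to 5.19% (3.99 to 6.72) on 2R. On the small chromosome 4 none of 31 far-intron candidates was listed, which allows a share of up to 11%. Just inside the signal limit of the IDR list were regions in dpy at 72.77 and tna at 72.67, and just outside were plh at 72.29 and Dad at 72.18. Just inside the limit of distance were siz and trx, both at 3011 bp, and just outside were CG32066 at 2979 bp and lili at 2936 bp.

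Pooled signals, which chose the peaks and are given here only as a description, ran from 72.7 to 591 with a median of 98.9. The IDR list was made from both replicate lists as well, so agreement between replicates partly follows from the selection and is also a description. All 257 peaks overlapped a candidate in both replicates, as did 98.8% of near-intron and 99.6% of intergenic peaks. Among the strongest 2334 candidates of replicate 2 were 206 of them, or 80.2% (74.9 to 84.6), among those of replicate 3 were 211, or 82.1% (77.0 to 86.3), and 166 were in both, or 64.6% (58.6 to 70.2). The median shift of the summit between replicates was 31.0 bp, and 58.0 bp in the 1686 candidates found in both. Signals of the replicates come from separately made lists with no stated common scale. Their log2 ratio, replicate 3 over replicate 2, was -0.04 at the median, with an SD of 0.53 over peaks, and 118 of 257 peaks were higher in replicate 3.

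**Figure D4:**
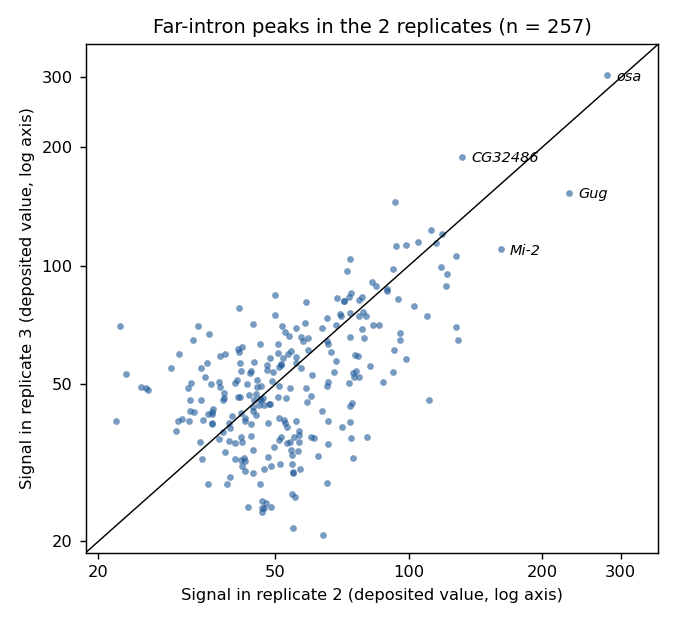
Signal of each far-intron peak in replicate 2 (horizontal axis) and replicate 3 (vertical axis), deposited values on log axes; 1 point is 1 of 257 peaks, the line marks equal values, and the 4 peaks of highest pooled signal carry their host gene. Points lie on both sides of the line, with 118 above it.

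The strongest far-intron peak lay in osa, which encodes a subunit of the Brahma chromatin-remodelling complex. Its summit, at chr3R:17704405 in intron 4 of 15, had a pooled signal of 591, with 280 in replicate 2 and 304 in replicate 3, and ranked 20 in the whole IDR list. It also lay in the annotated non-coding gene lncRNA:CR46035, so the host is shared. The next peak lay in Gug, which encodes the corepressor Atrophin, with 383 pooled, 230 in replicate 2 and 153 in replicate 3. The osa peak was thus above the Gug peak in both replicates. CG32486 followed with 324 pooled, 132 in replicate 2 and 189 in replicate 3.

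Hosts among the 20 strongest peaks are given next by role, as a description of peaks ranked on the signal that chose them. A peak in the overlapping genes Mi-2, the ATPase of the nucleosome-remodelling and deacetylase (NuRD) complex, and Su(Tpl), an elongation factor, had 269 pooled, 161 in replicate 2 and 110 in replicate 3. JIL-1, a kinase of histone H3, had 243, 119 and 120 in the same order. The peak in simj, which encodes a further NuRD subunit, had 231, 115 and 114. In these last 2 the replicates were close to each other. The peak in trx, a histone methyltransferase that maintains active Hox genes, had 220 pooled, 122 in replicate 2 and 95.1 in replicate 3. The strongest peak in gpp, the fly Dot1 histone methyltransferase, had 189, 92.3 and 97.9. The Polycomb and Trithorax list as a whole held a peak in 4 of 7 genes that had a far-intron candidate (osa, trx, tna and the Polycomb gene Psc, at 98.6 pooled), or 57.1% (25 to 84.2), beside 16.2% of all 1170 autosomal genes with such a candidate. The median signal was 90.2 over its 8 peaks and 98.9 over all far-intron peaks.

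Other hosts among the 20 include genes for receptors, kinases, a secreted inhibitor and transcriptional regulators. Hr3, a nuclear receptor of the ecdysone cascade, shared its peak with CG12912 and CG46321, at 237 pooled, 93.2 in replicate 2 and 145 in replicate 3. The peak in S, which encodes Star, a protein needed to release the EGF-receptor ligand Spitz, had 237, 128 and 106. A peak in CG33158 and aos, the secreted inhibitor of the EGF receptor, had 231, 112 and 123. The Wnt and planar polarity receptor gene fz had 219, 105 and 115, at 25276 bp from the nearest protein-coding TSS. The cGMP-dependent kinase gene for had 211, 118 and 99.3, and Btk, a Tec-family tyrosine kinase gene, had 204, 128 and 69.8. Replicate 2 was the higher one in Btk and in ush, a cofactor of GATA factors, at 189, 129 and 64.8. Replicate 3 was the higher one in Hr3 and in ken, a zinc-finger repressor gene, at 183, 73.8 and 104. The remaining hosts among the 20 were babos at 209 pooled, Roc2, a RING subunit of cullin ubiquitin ligases, at 205, beat-Ib of the beaten path family of axon guidance proteins at 202 and REPTOR, a transcription factor downstream of TORC1, at 185.

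The 257 peaks lay in 189 genes, or 16.2% of the 1170 autosomal protein-coding genes with a far-intron candidate. A single peak was held by 134 of them, 2 by 40, 3 by 10, 4 by 4 and 5 by 1. Host genes were longer than the other 981 genes, with medians of 34880 and 23485 bp, and had more far-intron candidates, with medians of 8 and 2. Whether length or candidate number bears on how many peaks a gene holds was not tested. An IDR peak within 500 bp of their own TSS was present in 58 host genes, or 30.7% (24.6 to 37.6), and in 15.2% (13.1 to 17.6) of the other genes. Among genes with any promoter candidate the shares were 33.9% (27.2 to 41.3) and 21.6% (18.7 to 24.8), and these intervals did not overlap. Host genes had a median of 2 start sites and the other genes 1, and a peak at any of them counted. The part played by gene length, candidate number and number of start sites in this difference was not tested.

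The gene with most far-intron peaks was Eip75B, a nuclear receptor gene that ecdysone induces, with 5 of its 25 far-intron candidates listed over 41442 bp. Their pooled signals were 139, 127, 119, 115 and 105. In the same order replicate 2 gave 73.9, 68.5, 44.5, 74.1 and 51.6, and replicate 3 gave 66.1, 70.6, 71.0, 36.6 and 56.3. All 5 were thus above the far-intron median of 98.9, and the replicates ordered them differently. The gene gpp held 4 peaks at 189, 144, 101 and 90.6, all in its intron 2, of which those at 144 and 101 had summits 203 bp apart. The gene rdx, an adaptor for the ubiquitin ligase that removes the Hedgehog effector Ci, held 4 at 159, 81.9, 81.2 and 75.9. The corepressor gene sbb held 4 at 159, 139, 122 and 91.1, and tara held 4 at 120, 90.9, 85.1 and 73.5.

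In all, 10 genes held 3 peaks each, and the gap between the strongest and the next varied widely among them. In osa the signals were 591, 78.0 and 74.6, and in simj they were 231, 163 and 87.7. The gene babos had 209, 93.3 and 89.7 within 2278 bp. The dystrophin gene Dys had 177, 150 and 73.8 spread over 112430 bp, the widest span among these genes. The Notch coactivator gene mam had 175, 103 and 95, and the glypican gene dlp had 161, 116 and 81.5. The gene sick had 159, 87.2 and 73.1, and the adhesion gene ed had 127, 106 and 80.2. In puc, the phosphatase that limits JNK signalling, the signals were 112, 110 and 87.6, and in tna they were 91.9, 88.5 and 72.7. The strongest peak thus stood far above the next in osa, and lay close to it in puc and tna.

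**Figure D5:**
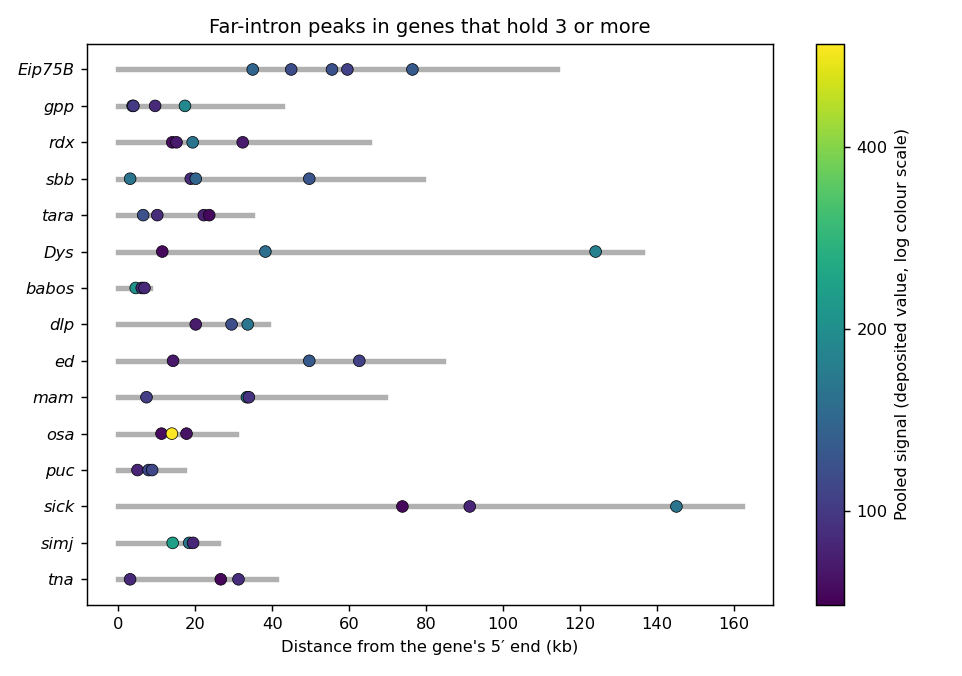
Position of each far-intron peak along the 15 genes that hold 3 or more (horizontal axis, distance from the gene's 5′ end in kb; grey bars, gene length; 1 row per gene, the gene with 5 peaks on top and those with 4 next). Circle colour gives the pooled signal on a log scale; the osa peak, at 591, is the highest (yellow), and the 5 Eip75B peaks spread over the middle of that gene.

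Gene lists for pathways of the embryo were read as counts beside the 16.2% of all genes with a far-intron candidate, with no test. The lists were chosen with results known and not matched for the number of candidates a gene has, so no list is set apart by its share. In the BMP and TGF-beta list 6 of 10 genes with a candidate held a peak. The list joins genes of the dorsal-ventral and appendage signal Dpp with others, such as the GATA cofactor gene ush, so this is no count of Dpp-signal genes alone. The ligand gene dpp had 130 pooled, 50 in replicate 2 and 75.1 in replicate 3. Its intracellular inhibitor Dad had 125, 53.7 and 66.4, and shn, a zinc-finger partner of the effector Mad, had 91.2, 48.4 and 44.5. The other hosts were ush, dlp and dally, which at 86.9 had the lowest top peak of the list. With 10 genes the interval of this share, 60% (31.3 to 83.2), was wide.

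The receptor tyrosine kinase list held a peak in 7 of 12 genes, or 58.3% (32.0 to 80.7), with a median signal of 144 over 8 peaks. Besides S and aos these were pnt, an Ets activator at the end of the cascade, with 159 pooled, 73.5 in replicate 2 and 83.5 in replicate 3, and InR, the insulin receptor, with 147, 77.4 and 74.4. The EGF-receptor ligand gene vn had 140, 75.7 and 59.5. The FGF gene bnl and the Ets repressor gene aop completed the list, with aop lowest at 78.1. Ligands, an inhibitor and nuclear effectors of the cascade were thus all among the hosts.

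The ecdysone and nuclear receptor list held a peak in 5 of 13 genes, or 38.5% (17.7 to 64.5). They were Hr3, Eip75B, the ecdysone receptor gene EcR at 179 pooled (89.3 in replicate 2 and 87.1 in replicate 3), the ecdysone-induced transporter gene E23 at 128 and ftz-f1 at 73.2, the last close to the limit of the list. The neuronal list held a peak in 10 of 28 genes, or 35.7% (20.7 to 54.2), led by the RNA-binding protein gene Rbfox1 at 130 and 108, the midline repellent gene sli at 120, the adhesion gene Fas3 at 114 and ttk, a zinc-finger repressor gene, at 100. The median signal was 127 over the 9 peaks of the ecdysone list and 98.2 over the 11 of the neuronal list.

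The appendage and mesoderm lists held peaks at shares near that of all genes. The appendage patterning list, to which disco-r belongs, held a peak in 2 of 17 genes, or 11.8% (3.29 to 34.3), in the Hox gene Antp at 93.7 and 75.5, both shared with CG46458, and in hth at 79.7 and 73.3. All 4 were below the median of far-intron peaks. The mesoderm list held a peak in 2 of 13, or 15.4% (4.33 to 42.2), in the RNA-binding protein gene how at 129 and in Mef2, the muscle differentiation factor, at 117 and 74.1. The muscle structure list held a peak in 0 of 7 genes, which allows a share of up to 35.4%.

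The remaining lists were small. The Wnt list held a peak in 3 of 10 genes (fz, the co-receptor gene arr at 93.2 and the inhibitor gene nkd at 73.3), the Notch list in 1 of 7 (mam), and the Hedgehog and Hippo list in 2 of 7 (dally and the Hippo pathway kinase gene wts, at 108 and 85.5). The metabolic and growth kinase list held a peak in 4 of 12 (InR, puc, the AMP-activated kinase subunit gene SNF4Agamma at 112 and Pkn at 80.5). The actin and adhesion list held one in 2 of 12, in cno at 92.5 and the polarity gene scrib at 82.5 and 76.6, and the hemocyte and dorsal ectoderm list in 2 of 8 (ush and dpp). The circadian list held one in 2 of 3 (Pdp1 at 154 and 74.8, and cwo at 127) and the glial list in 2 of 3 (pnt and sli).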

How the data were processed

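The peak lists of 2 replicates of 1 group were used as deposited. Per the deposited notes, each replicate's candidate list came from its own alignments and 1 control file, the pooled list from both alignments and that control, and the IDR list from the pooled and both replicate lists. The signal of a region is the authors' deposited value with no stated scale. Aligner, peak caller, IDR threshold and depth: not given in the sources used here. The dm3 lists were not used.

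Annotation was Ensembl BDGP6.54, and bases were read from the Release 6 assembly (dm6), with none printed from arm 2R. Summits were the region start plus the deposited offset. Overlap with a replicate's candidate required 50% of the peak's length. Introns were those of the canonical transcript, or else the shortest. Consensus sequences and 6-mers were counted on both strands, within 100 bp of the summit unless stated. GC weighting used bins of 5 percentage points. Shares carry 95% Wilson intervals, which hold counting error alone. No test was made, since 1 group of 2 allows none and regions are not replicates. The members, lists and consensus sequences were chosen with earlier results of these data known.

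Named are the hosts of the 20 strongest peaks, genes with 3 or more, up to 4 hosts of each of 16 gene lists, and 2 regions on either side of each limit; genes that complete a list count were named after their values were seen. Python 3.11.15 and NumPy 2.4.6 were used, and the counts were tested on simulated data. Alternatives are described in the closing section.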

Additional observations from a re-analysis of the deposited data

How the results depend on the processing

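Among 161 peaks more than 5000 bp from a TSS, 4.08% of candidates were listed, the median TSS distance was 7926 bp, the holding intron 20759 bp, and 46.6% had another peak within 10 kb. At more than 2000 bp the medians were 5010 and 15190 bp. With the TSS of every annotated gene, 229 peaks in 173 genes were left, 4.64% of candidates. In the IDR peaks above their median signal, 112 far-intron peaks remained in 91 genes, 2.08% of candidates; the medians were 5670 and 14920 bp, and the shares with a promoter peak and a neighbour were 20.9% and 37.5%. Each replicate taken alone gave median introns of 17814 to 19419 bp, GC of 36.3 to 36.8% and promoter peaks in 28.2 to 38.3% of hosts. The facing 6-mers, with alternatives chosen after seeing the data, were in 20.6% of peaks at 75 to 125 bp (candidates 5.69%), 40.5% at 25 to 175 bp (14.9%) and 37.5% of the stronger peaks. The forkhead share was 9.24 to 13.9% in single replicates, and in replicate 3 alone (without replicate 2) its interval reached the candidates. Of 34 consensus shares, 27 moved beyond their interval at 50 bp, and 17 candidate shares moved with GC weighting. A window of 50 bp can only hold fewer matches, in peaks and candidates alike. The CTCF share of candidates fell from 8.42% to 4.39%. No paired analysis was possible because there is 1 group.

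Depth is unknown, and rare sequences rest on few peaks. The promoter and neighbour shares were lower with the shorter IDR list, which has fewer peaks to count.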
